A study of Mus musculus with 4 samples.

Results

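The integrins, selectins and homing receptors of haematopoietic cells were followed in 2 bone marrow subpopulations that differ in the level of SOX7. The genes were taken as a list of 33 names, chosen by gene family with earlier results of these data known. The list comprised 17 integrin α chains, 7 integrin β chains, 2 selectins, the selectin ligand gene *Selplg*, 4 adhesion receptors of the immunoglobulin superfamily, *Cd44* and *Cd47*. Of the 33, 32 had at least 1 probe set that the array annotation gives to that gene alone, and all 32 passed the filter on low values, out of 18762 genes tested and 22184 genes named. *Alcam* had no such probe set in the annotation used and was not analysed here.

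Integrins are receptors of 1 α and 1 β chain that tie cells to extracellular matrix, to plasma proteins and to one another, and on blood cells they bind firmly only after a signal from inside the cell. Selectins are lectins of platelets, leukocytes and activated endothelium that bind sialylated, fucosylated glycans on their ligands and slow passing cells before integrins arrest them. In the bone marrow, α4β1 and its ligand VCAM1, α6β1 and laminin, and CD44 and hyaluronan are classical pairs that hold progenitors in place or bring them back after transplantation, and antibodies to integrin chains such as MAC1, the αM chain, serve as lineage markers.

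RNA came from iSox7 bone marrow cells, in which doxycycline switches on SOX7 together with GFP, that had been grown for 10 to 12 passages on irradiated OP9 stroma with KIT ligand, interleukin-7 and FLT3 ligand. The SOX7::GFP high and low subpopulations were then sorted on SOX7::GFP and cKIT, and 2 samples of each were hybridized to 4 Affymetrix mouse exon arrays, which the study describes as biological duplicates. The labels further name a derivative (Ainv18), and the series' design text speaks of culture with and without doxycycline. The grouping used here is the labelled SOX7 level, carried by all 4 arrays. The study describes both subpopulations as SOX7::GFP-expressing cells that differ in the level of GFP, which doxycycline switches on. By that account the SOX7::GFP low arrays are not a culture without doxycycline. The methods add doxycycline to the culture medium when indicated, and the same dose is listed for all 4 arrays. Whether animals were pooled is not given in the sources used here, so p-values refer to the spread between the 2 arrays of a subpopulation. In limma a gene's spread is drawn towards that of all genes tested, so SEs and p-values also rest on other genes. Values are log2 signals, and a gene's value is the mean of its probe sets whose second-highest array reached 5.04.

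The *Sox7* value was 9.52 and 9.63 in SOX7::GFP high cells and 9.07 and 8.90 in SOX7::GFP low cells, a log2 difference of 0.59 ± 0.15 (SE) that had the direction of the labels but was not called (adjusted p = 0.0859, limma). *Kit* lay above the filter value on all arrays and was 0.89 ± 0.17 higher in SOX7::GFP high cells, with an adjusted p of 0.0464 and a change under 2-fold. Arrays of a subpopulation correlated at r = 0.961 (high) and 0.958 (low) over genes, and arrays of different subpopulations at 0.859 to 0.865. The subpopulations also differed in lineage markers. All 10 B-lineage markers were lower in SOX7::GFP high cells, and their mean level was 5.68 to 6.78 on the SOX7::GFP high arrays and 10.39 to 10.63 on the SOX7::GFP low arrays. Of 10 granulocyte and macrophage markers 4 were lower and 1 was higher (mean level 7.34 and 8.0 against 9.58 to 9.61). Of 8 megakaryocyte markers 4 were higher (7.21 to 7.79 against 5.66 to 5.92), and so were 3 of 8 mast cell and basophil markers (7.71 to 8.49 against 6.59 to 6.74) and 5 of 10 endothelial markers, of which 1 more was lower (6.99 to 7.20 against 5.93 to 6.08). Of 14 stromal markers *Thy1* and *Fbn1* were higher and none was lower (6.73 on both arrays against 5.99 to 6.56), and of 8 T and NK cell markers *Gzmb* was higher and *Klrb1c* lower (6.68 to 6.69 against 6.40 to 6.51). No marker is listed at 0, since a normalized array signal has no true zero.

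SOX7::GFP high cells expressed the collagen receptor chain *Itga2* and the laminin receptor chain *Itga6* at higher level and the α4 chain *Itga4* at lower level, and the other 29 members were not called. Calls required an adjusted p below 0.05 in limma together with a difference of 2-fold or more. The *Itga4* call lay near that threshold (adjusted p = 0.0479, limma). It did not hold with the median of probe sets or after quantile normalization. The 3 members called stand against 6.85% of all genes tested, the 2 called higher against 3.61% and the 1 called lower against 3.24%, so that the members were not set apart from genes in general by these counts. Without the fold threshold 5 members passed, with *Itga5* and *Itgal* added, where 8.66% of all genes did. The median log2 difference was 0.11 over the 32 members and 0.05 over all genes, whereas the median size of the difference was 0.48 against 0.24. The values of the 2 subpopulations did not overlap for 24 members, 15 of them higher and 9 lower in SOX7::GFP high cells, and 54.4% of all genes did not overlap either. As in any bulk sample, fewer cells of a type and less RNA per cell cannot be told apart in these values.

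**Figure D1:**
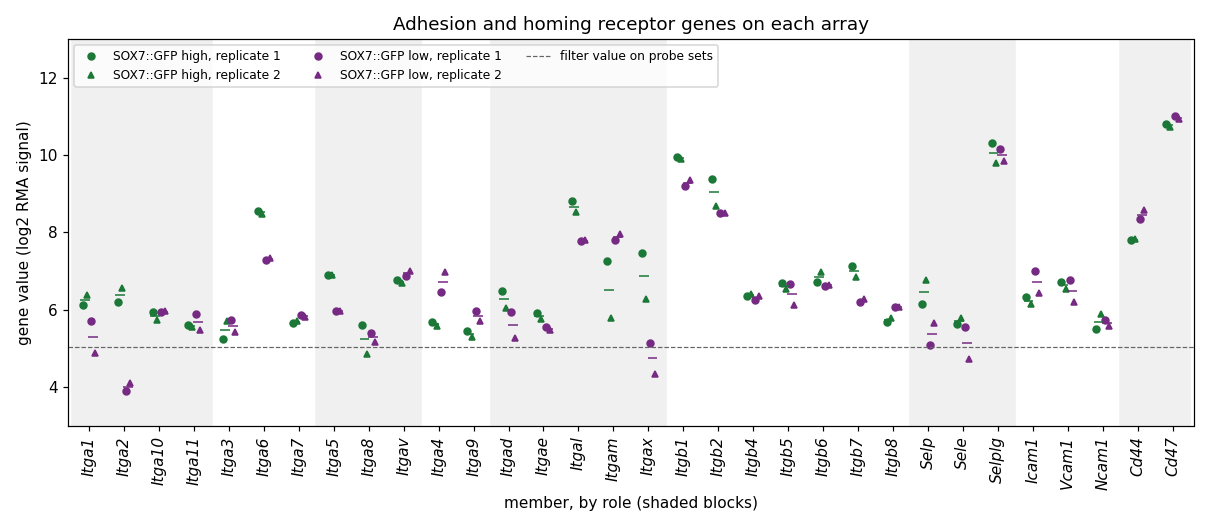
Value of each of the 32 members on each of the 4 arrays (y axis, log2 signal), with members ordered by role on the x axis, circles for replicate 1, triangles for replicate 2, short bars for the mean of 2 arrays and the dashed line at the filter value of 5.04. For *Itga2* the SOX7::GFP low arrays sit at 3.89 and 4.10, under that line, and the SOX7::GFP high arrays at 6.20 and 6.56, while levels of different genes cannot be compared on this scale.

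The start regions of the members that differed most are shown because SOX7 binds DNA and these are the sequences it, and the blood cell factors beside it, could meet near the gene. For 23 member genes RefSeq (GRCm38.p6) gave 26 windows of 250 bases before a transcript start, and those of the 2 largest rises and the 2 largest falls among them are printed 5′ to 3′ on the strand of the gene. Capitals mark matches, on either strand and with none overlapping another, to the core motif of 4 families of factors. For SOX factors the letters searched were AACAAT, the core that their HMG domain binds. For RUNX factors, which definitive haematopoiesis requires, they were TGTGGT. For GATA factors of the erythroid, megakaryocyte and mast cell lineages they were AGATAA. For ETS factors such as PU.1 they were AGGAAG. The windows are chr13:114932101-114932350 (minus strand) for *Itga2*, chr7:128129300-128129549 (plus strand) for *Itgax*, chr2:79255176-79255425 (plus strand) for *Itga4* and chr7:128062390-128062639 (plus strand) for *Itgam*.
Itga2: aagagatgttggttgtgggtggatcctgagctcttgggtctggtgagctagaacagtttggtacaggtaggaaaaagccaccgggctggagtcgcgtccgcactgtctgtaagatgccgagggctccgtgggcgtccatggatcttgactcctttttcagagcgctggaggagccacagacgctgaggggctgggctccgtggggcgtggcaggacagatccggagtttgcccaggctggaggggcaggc
Itgax: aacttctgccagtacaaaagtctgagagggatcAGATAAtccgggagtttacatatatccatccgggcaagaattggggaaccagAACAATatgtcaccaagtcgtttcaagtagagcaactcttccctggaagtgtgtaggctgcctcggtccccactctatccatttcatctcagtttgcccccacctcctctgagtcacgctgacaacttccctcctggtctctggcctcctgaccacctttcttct
Itga4: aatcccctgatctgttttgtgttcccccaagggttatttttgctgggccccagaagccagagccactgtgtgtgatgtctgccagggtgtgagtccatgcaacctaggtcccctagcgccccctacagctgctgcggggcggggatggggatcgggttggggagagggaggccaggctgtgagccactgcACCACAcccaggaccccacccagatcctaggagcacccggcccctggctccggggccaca
Itgam: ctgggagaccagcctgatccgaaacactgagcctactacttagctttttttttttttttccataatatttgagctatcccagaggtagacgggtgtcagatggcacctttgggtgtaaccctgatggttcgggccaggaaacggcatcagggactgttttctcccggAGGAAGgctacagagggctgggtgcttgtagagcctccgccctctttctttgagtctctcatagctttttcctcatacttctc
The *Itga2* window held none of the 4 motifs. The *Itgax* window held 1 SOX match and 1 GATA match, the *Itga4* window 1 RUNX match, read on the opposite strand, and the *Itgam* window 1 ETS match. Of the 26 member windows 3 held the SOX motif, 2 the RUNX motif, 2 the GATA motif and 12 the ETS motif, and of all 32851 windows of this length 9.42%, 14%, 9.99% and 29.5% did. A match describes letters and not a site in use, and a window without one says nothing about the factor.

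Among the α chains that bind collagen, *Itga2* was the member with the largest difference. It encodes the α2 chain of the collagen receptor α2β1, known from platelets, mast cells and activated lymphocytes, and lies at chr13:114833081-114932100 of GRCm38.p6. Its value was 6.20 and 6.56 in SOX7::GFP high cells and 3.89 and 4.10 in SOX7::GFP low cells, so both high arrays lay far above both low arrays. The log2 difference was 2.38 ± 0.19 (SE, n = 2 arrays per subpopulation, 95% interval 1.90 to 2.87), or 5.22-fold, with an adjusted p of 0.0063 (limma). All 22 probe sets kept, of 27 named, were higher in SOX7::GFP high cells, by 0.90 to 3.77, and 9 of them were called in a fit across single probe sets. Most of the 22, called ones among them, reached the filter value on the SOX7::GFP high arrays alone, so their shared direction is in part set by the filter. The SOX7::GFP low values lie under the filter value, so the gene passed the filter through its SOX7::GFP high arrays and the fold depends on the background of the array. Averaged over all 27 probe sets with no filter, the difference was 2.31 (adjusted p = 0.0037).

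*Itga1*, which encodes the other collagen receptor α chain common on blood cells and lies 26.0 kb from *Itga2* on chromosome 13, pointed the same way without being called. Its values were 6.11 and 6.38 against 5.70 and 4.88, a log2 difference of 0.96 ± 0.31 (adjusted p = 0.150). The arrays did not overlap, but the SOX7::GFP low arrays differed from each other by nearly as much as the means did. Of the 39 probe sets named for *Itga1* 19 were kept, and these were all higher in SOX7::GFP high cells, with a median of 1.11. Several of the 19 reached the filter value on the SOX7::GFP high arrays alone, so their shared direction is in part set by the filter. Of the 20 probe sets not kept, 18 were higher too. *Itga10* and *Itga11*, the collagen receptor chains of cartilage and fibroblasts, differed by -0.11 ± 0.15 and -0.10 ± 0.19, and their arrays overlapped.

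*Itga6*, at chr2:71786886-71858427, encodes the α6 chain of the laminin receptors α6β1 and α6β4, and is carried by haematopoietic stem and progenitor cells and by platelets. Its value was 8.54 and 8.48 in SOX7::GFP high cells and 7.29 and 7.34 in SOX7::GFP low cells, so the replicates lay close together and the subpopulations apart. The log2 difference was 1.19 ± 0.13 (95% interval 0.84 to 1.54), or 2.29-fold, with an adjusted p of 0.0125. Of the 37 probe sets kept, 33 were higher in SOX7::GFP high cells and 21 of them were called, whereas 4 had negative differences of at most 0.50 in size. The other laminin receptor chains gave no such difference, with -0.10 ± 0.22 for *Itga3*, the α3 chain of epithelia, and -0.16 ± 0.13 for *Itga7*, the α7 chain of muscle. With any 1 of the 4 arrays left out, *Itga6* stayed higher by 1.16 to 1.22 but its adjusted p rose to 0.060 to 0.082, which ends the call, while *Itga2* was called each time (2.21 to 2.56, adjusted p 0.030 to 0.046). Such a fit sets 1 array against 2 and assumes that the lone array varies like the other subpopulation.

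Of the α chains that bind the RGD sequence of fibronectin and vitronectin, *Itga5* stood apart by its small spread. It encodes the α5 chain of the fibronectin receptor α5β1, with values of 6.90 and 6.89 in SOX7::GFP high cells and 5.95 on both SOX7::GFP low arrays. The log2 difference was 0.94 ± 0.13 (95% interval 0.60 to 1.29, adjusted p = 0.0211), which passed the test but stayed under 2-fold at 1.92-fold. All 31 probe sets kept were higher in SOX7::GFP high cells and 4 were called. Some of the 31, a called one among them, reached the filter value on the SOX7::GFP high arrays alone, so their direction is in part set by the filter. *Itgav*, the αv chain that pairs with several β chains, was 6.75 and 6.69 against 6.86 and 7.0, a difference of -0.21 ± 0.14, with 31 of its 39 probe sets lower. *Itga8*, a chain of mesenchymal cells, kept only 3 of 34 probe sets and its arrays overlapped (-0.05 ± 0.29).

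*Itga4* was the only member called lower. It encodes the α4 chain of VLA4 (α4β1), which binds VCAM1 and fibronectin and retains progenitors in the marrow, and of the gut homing receptor α4β7, and lies at chr2:79255426-79333114. Its value was 5.68 and 5.57 in SOX7::GFP high cells and 6.46 and 6.96 in SOX7::GFP low cells, so that both high arrays lay under both low arrays. The log2 difference was -1.09 ± 0.21 (95% interval -1.64 to -0.54), a 2.13-fold lower level with an adjusted p of 0.0479. Of its 15 probe sets kept 13 were lower, 2 of them called at -2.12 and -1.82. Some of the 15 reached the filter value on the SOX7::GFP low arrays alone, so their direction is in part set by the filter. The call did not hold when any of the arrays was left out (-1.34 to -0.84, adjusted p 0.051 to 0.207), nor with the median of the probe sets in place of their mean (-0.65, adjusted p = 0.261). The B-lineage markers, which fell by a median log2 of 4.51, moved with it. Of 10 granulocyte and macrophage markers 4 were called lower, 1 was called higher and 5 were not called. The part of either list in the lower *Itga4* value was not tested. *Itga9*, the related α9 chain, was 5.45 and 5.28 against 5.97 and 5.71 (-0.48 ± 0.17, adjusted p = 0.171).

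**Figure D2:**
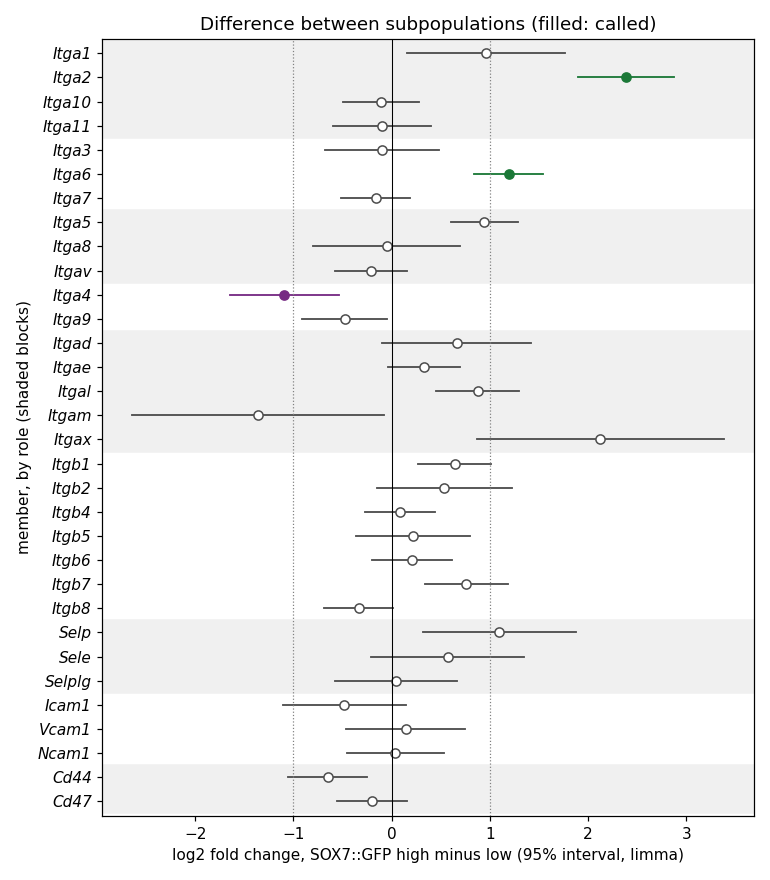
Log2 difference of each member between SOX7::GFP high and low cells (x axis) with its 95% interval from limma, members by role on the y axis, filled points for called genes and dotted lines at a 2-fold change. *Itga2* and *Itga6* lie right of the 2-fold line and *Itga4* left of it, while *Itgax* (2.12), *Selp* (1.10) and *Itgam* (-1.36) lie beyond these lines but were not called.

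The α chains that pair with β2 on leukocytes differed in direction. *Itgal* encodes the αL chain of LFA1, which binds ICAM family ligands on other cells, and was 8.80 and 8.52 in SOX7::GFP high cells against 7.77 and 7.79 in SOX7::GFP low cells. The difference of 0.88 ± 0.16 (95% interval 0.45 to 1.30, adjusted p = 0.0423) passed the test at 1.83-fold, under the fold threshold, and all 32 probe sets kept were higher. *Itgax*, at chr7:128129526-128150657, encodes the αX chain known as CD11c on dendritic cells, and had values of 7.46 and 6.27 against 5.14 and 4.34. All 30 probe sets kept, of 36 named, were higher in SOX7::GFP high cells and 2 were called. Some of the 30 reached the filter value on the SOX7::GFP high arrays alone, so their shared direction is in part set by the filter. The replicates of each subpopulation lay about 1 log2 unit apart, and the gene's difference of 2.12 ± 0.48 (95% interval 0.86 to 3.38) was not called (adjusted p = 0.0691). Over genes with at least 3 probe sets the adjusted p was 0.0290 and with a trend and robust fit 0.0300, which makes a call, whereas with any 1 of the arrays left out *Itgax* was not called (1.53 to 2.72, adjusted p 0.082 to 0.214).

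*Itgam*, at chr7:128062640-128118491, encodes the αM chain of MAC1 on granulocytes and macrophages and is the neighbour of *Itgax* on chromosome 7, with 11 kb between the genes. It was 7.25 and 5.79 in SOX7::GFP high cells and 7.80 and 7.95 in SOX7::GFP low cells. The 2 high arrays lay under both low arrays but differed from each other by more than the subpopulations did, and the difference of -1.36 ± 0.49 (95% interval -2.64 to -0.07) was not called (adjusted p = 0.189). Of 38 probe sets kept 37 were lower and none was called. The value rested on both SOX7::GFP high arrays, being -2.09 without replicate 1 and -0.63 without replicate 2. In these 2 fits the gene's own spread came from the SOX7::GFP low arrays alone. Of the 10 granulocyte and macrophage markers 4 were called lower in the same cells (*Ltf*, *Camp*, *Lcn2* and *Ngp*), *Ctsg* was called higher and 5 were not called, and their part in the *Itgam* value was not tested. The third gene of this cluster, *Itgad*, 23.3 kb beyond *Itgax*, encodes the αD chain of macrophages and gave 0.66 ± 0.29 (adjusted p = 0.265). That mean rested on few of its 11 probe sets, whose median difference was 0.16 and highest 3.21. *Itgae*, the αE chain that binds E-cadherin on T cells, gave 0.33 ± 0.14 with 9 of 37 probe sets kept.

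**Figure D3:**
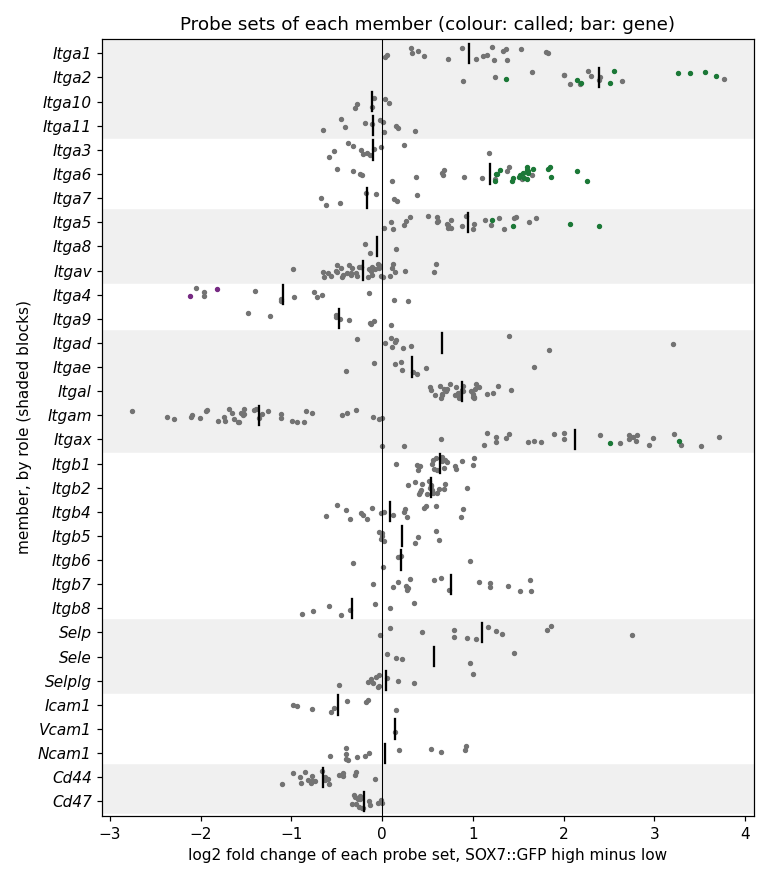
Log2 difference of every probe set kept for each member (x axis, 517 points in all), with green points for probe sets called higher, purple for those called lower, grey for the rest and a black bar for the gene. The points of *Itga2*, *Itga5*, *Itgal* and *Itgax* all lie right of 0 and those of *Cd44* and *Cd47* left of it, whereas *Itgad* owes its bar to a few points on the far right.

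Over single probe sets, 36 of the 517 kept for members were called higher (6.96%) and 2 lower (0.387%), against 2.25% and 1.77% of all 191615 probe sets kept. These 38 probe sets belonged to 5 members, *Itga2* (9), *Itga4* (2), *Itga5* (4), *Itga6* (21) and *Itgax* (2), so most came from *Itga6* and *Itga2*. Most probe sets kept for *Itga2*, and some for *Itga5* and *Itgax*, reached the filter value on the SOX7::GFP high arrays alone. Some for *Itga4* did so on the SOX7::GFP low arrays alone. The directions of these probe sets are thus in part set by the filter. Probe sets of a gene share its RNA and the 4 arrays, so they are not replicates, and the count says how widely along a transcript a difference was seen. For *Itgal*, *Itgb1* and *Itgb2* every probe set kept was higher with none called.

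None of the 7 β chains was called. *Itgb1*, the β1 chain that pairs with α1 to α6 and others, was 9.93 and 9.89 in SOX7::GFP high cells and 9.20 and 9.35 in SOX7::GFP low cells, a difference of 0.64 ± 0.14 (adjusted p = 0.0647), with all 19 probe sets higher. Its difference was thus under those of its partners *Itga2* and *Itga6*, and opposite in sign to that of *Itga4*, although differences between chains were not tested. *Itgb7*, which pairs with α4 and αE in lymphocyte homing to the gut, was 7.13 and 6.84 against 6.19 and 6.27 (0.76 ± 0.16, adjusted p = 0.0613), again opposite in sign to *Itga4*. *Itgb2*, the β2 chain shared by LFA1, MAC1 and CD11c, was 9.38 and 8.68 against 8.49 and 8.50. The first SOX7::GFP high array stood above the other 3, and the difference of 0.54 ± 0.26 was not called (adjusted p = 0.311). The epithelial and mesenchymal β chains differed little, with 0.08 ± 0.14 for *Itgb4*, 0.22 ± 0.22 for *Itgb5*, 0.21 ± 0.16 for *Itgb6* and -0.33 ± 0.13 for *Itgb8*.

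The chains of the platelet fibrinogen receptor, which are not members, are given because they complete the platelet integrins beside *Itga2*. *Itga2b*, the αIIb chain known as CD41, was 8.06 and 8.45 against 5.65 and 6.05 (2.40 ± 0.22, adjusted p = 0.0085). *Itgb3*, its β3 partner, was 7.94 and 7.84 against 6.07 and 6.12 (1.80 ± 0.14, adjusted p = 0.0061). Both were called higher and had no overlap between subpopulations, as *Itga2* had. Of 8 megakaryocyte markers 4 were called higher, *Itga2b* among them, and 4 were not called. Of 8 mast cell and basophil markers 3 were called higher and 5 were not, with *Prss34* at -0.94. The part of either list in the *Itga2* value was not tested.

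Neither selectin was called. *Selp*, which encodes the P-selectin of platelet granules and endothelium, was 6.15 and 6.76 in SOX7::GFP high cells and 5.08 and 5.64 in SOX7::GFP low cells. The arrays did not overlap, but replicates differed by about as much as the nearest arrays of the 2 subpopulations did, and the difference of 1.10 ± 0.30 (95% interval 0.32 to 1.87) had an adjusted p of 0.105. Of its 13 probe sets 12 were higher and none was called. *Sele*, the endothelial E-selectin gene that lies 56.8 kb from *Selp* on chromosome 1, kept 5 of 15 probe sets and gave 0.57 ± 0.30 (adjusted p = 0.340). *Selplg*, the gene of the mucin PSGL1 that selectins bind on leukocytes, was 10.31 and 9.78 against 10.15 and 9.84, with overlapping arrays and a difference of 0.05 ± 0.24.

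*Cd44*, the hyaluronan receptor, and *Cd47*, the surface protein that restrains engulfment by macrophages, both had negative differences without being called. *Cd44* was 7.80 and 7.81 in SOX7::GFP high cells and 8.33 and 8.58 in SOX7::GFP low cells (-0.65 ± 0.15, 95% interval -1.05 to -0.25, adjusted p = 0.0761), and all 21 probe sets kept were lower. *Cd47* was 10.80 and 10.73 against 11.01 and 10.92, with all 15 probe sets lower but a difference of -0.20 ± 0.14 (adjusted p = 0.458). Among the immunoglobulin superfamily receptors, *Icam1*, the LFA1 ligand, gave -0.48 ± 0.24 (adjusted p = 0.315) with 8 of 9 probe sets lower. *Vcam1*, the α4β1 ligand of stromal cells, kept 1 of 18 probe sets (0.14 ± 0.23), and *Ncam1*, known from neurons and NK cells, gave 0.04 ± 0.19 with overlapping arrays. In all, 16 members kept fewer than 50% of their probe sets, none of these was called, and their differences reached at most 0.96 in size.

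The partners of these receptors inside and outside the cell were given as 3 lists, chosen like the members with earlier results known. Of 37 integrin activation and adaptor genes tested 2 were called higher, 3 lower and 32 not called, with a median of 0.06. Over all genes tested, 3.61% were called higher and 3.24% lower. *Fyb*, the adaptor ADAP that links antigen receptors to integrins, was 8.86 and 8.89 against 6.01 and 6.27 (2.73 ± 0.16, adjusted p = 0.0040), and *Parvb*, the β-parvin that joins integrin-linked kinase to actin, was 8.55 and 7.70 against 5.76 and 5.44 (2.52 ± 0.32, adjusted p = 0.0172). *Rasgrp2*, the exchange factor CalDAG-GEFI that activates RAP1 ahead of integrins, was 7.35 and 7.04 against 9.24 and 9.02 (-1.94 ± 0.18, adjusted p = 0.0086). The arrays of the 2 subpopulations lay apart for each of these genes. *Nedd9*, the scaffold of focal adhesion kinase signalling in lymphocytes, was 6.98 and 6.74 against 8.53 and 8.97 (-1.90 ± 0.21, adjusted p = 0.0120), and *Ptk2*, focal adhesion kinase itself, was also called lower (-1.58 ± 0.18).

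Of 15 genes that build or carry selectin ligands 2 were called higher and 2 lower, with a median of 0.13. The shares over all genes tested were 3.61% higher and 3.24% lower. *Fut4*, a fucosyltransferase of the Lewis X epitope, was 6.83 and 7.37 against 4.81 and 4.72 (2.33 ± 0.22, adjusted p = 0.0087). Both SOX7::GFP low values of *Fut4* lie under the filter value, so it passed the filter through its SOX7::GFP high arrays. *Gcnt1*, the core 2 enzyme that branches the glycans of PSGL1, was 7.70 and 7.48 against 5.23 and 5.70 (2.13 ± 0.21, adjusted p = 0.0099). *St3gal6*, a sialyltransferase, was 4.57 and 6.10 against 8.40 and 9.01 (-3.37 ± 0.55, adjusted p = 0.0310), and *Tpst1*, a sulfotransferase that acts on tyrosines, was 6.36 and 6.70 against 9.08 and 9.74 (-2.88 ± 0.27, adjusted p = 0.0087). Of 4 called enzymes on the way to a selectin ligand, 2 thus rose and 2 fell while *Selplg* itself overlapped between the subpopulations. Of 17 ligands and counter-receptors tested, *Icam4*, an erythroid ligand of integrins, was called higher at 6.41 and 7.03 against 5.00 and 5.27 (1.59 ± 0.26, adjusted p = 0.0308), 16 were not called and the median was 0.34. The SOX7::GFP low values of *Icam4* lie on either side of the filter value, so its fold depends on the background of the array.

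**Figure D4:**
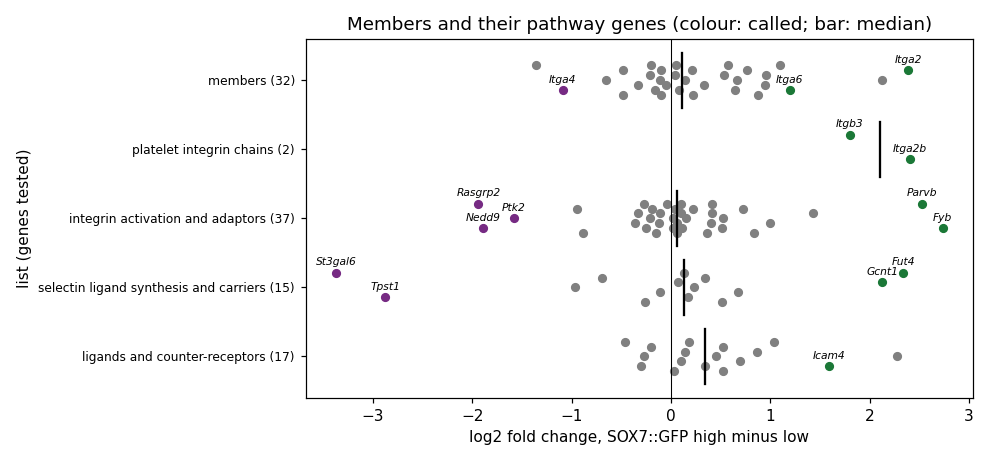
Log2 difference of each gene (x axis) among the members and in 4 lists of their pathway (y axis, with the number of genes tested), with green for called higher, purple for called lower, grey for not called and a black bar for the median of each list. Both platelet chains lie at 1.80 and above, and the genes called in the adaptor and selectin ligand lists lie farther from 0 than *Itga4* and *Itga6* do.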

How the data were processed

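For the 4 arrays the table deposited by the authors holds 1236087 probe sets on a log2 scale, computed by RMA, a robust multi-array average that corrects background and normalizes across arrays (its version is not given in the sources used here). Values ran from 0.55 to 14.4 with array medians of 3.90 to 3.91. Arrays yield no counts, and their number sets the precision. No column held the authors' own comparisons.

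From there, 321091 probe sets with 1 gene symbol in the platform annotation were used, and those with several (7796) or none (907200) were left out. Of 22378 names, 18054 were current symbols of GRCm38.p6 and 4259 older ones were updated. Probe sets whose second-highest array was 5.04 or more (191615) were averaged per gene. Limma 3.58.1 in R 4.3.3 fitted both subpopulations with empirical Bayes and Benjamini-Hochberg adjustment over 18762 genes, and separately over probe sets. Calls needed an adjusted p under 0.05 and 2-fold. The scripts were tested on simulated data.

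The members, the lists and the call rule were chosen with earlier results of these data known. Values on every array are given for members with an adjusted p under 0.05 or a non-overlapping log2 difference of at least 1, for their partners, and for up to 4 called genes per list. The fifth called adaptor, *Ptk2*, and the markers were named after their values were seen. Of 11 reference genes, used for centring, *Gusb* was called higher and none lower. Results were recomputed without the filter, with a stricter one (6), with medians over probe sets, for genes with at least 3 probe sets, after quantile normalization or centring on reference genes, by the methods' t-test, with trend and robust options in limma, with a replicate block, without each array in turn, and without the fold threshold.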

Additional observations from a re-analysis of the deposited data

How the results depend on the processing

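Of 414 recomputed member differences under 13 alternatives, 367 kept their direction and side of the threshold, 14 lost and 6 gained a call, and 27, all in 10 members that were not called, changed sign. The members called higher numbered 3 with the stricter filter, with at least 3 probe sets and with the trend and robust fit, which added *Itgax*, and 4 without the fold threshold (with *Itga5* and *Itgal*). Each left-out array gave 1 to 1 called higher, *Itga2*, and 0 to 1 called lower, which without SOX7::GFP high replicate 1 was *Itgam* and not *Itga4*. Called lower were 0 members with the median of probe sets and 0 after quantile normalization. The methods' t-test called 0 members and 0 genes in either direction after adjustment. At an unadjusted p, an alternative chosen after seeing the data, it called 2 members higher, 0 lower, and 628 and 565 genes. Over all genes, 145 to 406 were called higher and 166 to 313 lower with an array left out.

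No source says that the replicate numbers pair samples across subpopulations, and deviations of same-numbered arrays correlated at 0.104. With the number as a block, 4 members were called higher (*Itga2*, *Itga6*, *Itgax* and *Selp*) and 0 lower.

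Signs turned without the filter for *Itga10* (0.025), *Itga7* (0.025), *Itgb5* (-0.042), *Vcam1* (-0.18) and *Ncam1* (-0.11), with the median for *Itga11* (0.040), *Itga8* (0.23), *Itgb4* (-0.21), *Itgb5* (-0.17) and *Ncam1* (-0.14), with the stricter filter for *Itgb4* (-0.015) and *Ncam1* (-0.19), with centring for *Itgb4* (-0.0092), *Selplg* (-0.048) and *Ncam1* (-0.058), and after quantile normalization for *Selplg* (-0.0059). With an array left out they ranged from -0.31 to 0.11 for *Itga11*, -0.33 to 0.13 for *Itga3*, -0.43 to 0.32 for *Itga8*, -0.052 to 0.49 for *Itgb5*, -0.22 to 0.31 for *Selplg*, -0.14 to 0.43 for *Vcam1* and -0.16 to 0.23 for *Ncam1*. The cause was not tested.

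With 2 arrays per subpopulation, members whose replicates lie far apart, such as *Itgam*, *Itgax* and *Selp*, can differ without being called. Values under 5.04 lie near background, so the differences of *Itga2*, *Itgax*, *Fut4* and *Icam4* rest on a low level in SOX7::GFP low cells. A stricter filter keeps the probe sets of *Itgax* mainly through its SOX7::GFP high arrays. A fit with an array left out takes a gene's own spread from the other subpopulation.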
